A study of Mus musculus with 12 samples.

Results

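The 10 genes described here carry the parathyroid hormone (PTH) signal from the cell surface to cAMP and its effectors: Pth1r, Pthlh, Gnas, Rgs2, Crem, Pde4a, Pde4b, Pde4d, Prkar1a and Pde3a. They were taken by gene symbol and Ensembl identifier from the 37583 mouse genes counted in each library, as a list chosen with earlier results of these data known. They make up 11 identifiers, because Pde4d has a second, short identifier. RNA was sequenced from Ocy454 cells, a mouse long bone derived osteocyte line with a temperature-sensitive T antigen, of which the study used a single-cell subclone. The control cells are labelled as original cells. The study's methods describe Cas9 and an empty guide RNA lentivirus in the controls of its gene deletion work, and whether these libraries carried them is not given in the labels. Opposite them, the libraries labelled DKO came from cells with HDAC4 and HDAC5 deletion, the class IIa histone deacetylases. Each genotype was kept static or placed under fluid flow shear stress (FFSS), made by orbital rotation, for 3 h, with 3 libraries in each of the 4 groups. Each genotype is 1 cell line, so a difference between genotypes and a difference between lines cannot be told apart. The labels do not say whether the 3 libraries of a group were separate cultures. The p-values and intervals measure the spread between these libraries, pooled over all 4 groups in a common fit unless another fit is named.

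PTH and the related peptide PTHrP, the product of Pthlh, bind PTH1R on osteoblasts and osteocytes. The receptor couples to the stimulatory G protein alpha subunit encoded by Gnas, adenylyl cyclase then makes cAMP, and cAMP frees the catalytic subunits of protein kinase A (PKA) from regulatory subunits such as that encoded by Prkar1a. PKA phosphorylates CREB, which acts at promoters with the cAMP response element, while phosphodiesterases (Pde3a, Pde4a, Pde4b and Pde4d) degrade cAMP, RGS2 dampens G protein signalling, and CREM includes the repressor ICER. In osteocytes this pathway is best known for lowering Sost, the gene of sclerostin.

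The core of the cAMP response element, TGACG or CGTCA on the other strand, was searched in the 250 bases before each RefSeq start site (GRCm38.p6) of the 8 members with an entry used here. Crem and Pde3a were left out of this search, so the counts say nothing about their promoters. The core was in 10 of 23 windows (43.5%), against 17.7% of the 32817 windows used for comparison. Those windows are of the genes with an entry used here and may not cover every gene. The palindrome TGACGTCA was in 1 of 23 windows, against 1.55% of the same 32817. The windows of 1 gene can overlap: windows 2 and 3 of Gnas hold the same core, as do windows 4 and 5 of Prkar1a, and it was counted in each window. A match is a description and not a binding site. The 3 windows shown are the most upstream ones of the members whose RNA moved most between groups, with each core in capitals. They are not typical of these genes: the other 2 windows of Pth1r and the other 3 of Pde4b held no core, and Rgs2 has 1 window.
Rgs2, chr1:144004150-144004399, minus strand: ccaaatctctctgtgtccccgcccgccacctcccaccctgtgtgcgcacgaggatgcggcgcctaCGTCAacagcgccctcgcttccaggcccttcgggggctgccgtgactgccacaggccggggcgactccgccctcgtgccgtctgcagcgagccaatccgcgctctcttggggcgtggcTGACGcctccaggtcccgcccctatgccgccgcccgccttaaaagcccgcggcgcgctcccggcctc
Pde4b, chr4:102421305-102421554, plus strand: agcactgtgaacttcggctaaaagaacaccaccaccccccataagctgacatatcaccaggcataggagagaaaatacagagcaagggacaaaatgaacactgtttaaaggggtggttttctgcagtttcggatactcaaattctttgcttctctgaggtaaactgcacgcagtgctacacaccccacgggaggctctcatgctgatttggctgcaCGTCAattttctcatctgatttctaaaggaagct
Pth1r, chr9:110747146-110747395, minus strand: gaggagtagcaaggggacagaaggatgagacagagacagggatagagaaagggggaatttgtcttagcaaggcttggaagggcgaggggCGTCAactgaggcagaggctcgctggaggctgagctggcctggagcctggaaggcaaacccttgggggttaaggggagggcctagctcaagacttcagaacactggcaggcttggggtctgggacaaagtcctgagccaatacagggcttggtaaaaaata
In Rgs2 the cores began 185 and 67 bases before the start site, in Pde4b 34 bases and in Pth1r 161 bases before it. The palindrome was in the window of the fifth of the 6 start sites listed for Prkar1a (chr11:109650699-109650948, plus strand), 49 bases before the start.

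The libraries held 17585225 to 19174118 counts in genes. Levels are given as CPM, counts scaled to a library of 1000000 with TMM factors. The floor of detection, 3 counts, was 0.156 to 0.171 per 1000000 counts. Control FFSS replicate 1 stood apart from the other control FFSS libraries: 5.87% of its reads lay outside genes, against 9.19% and 10.04%, and Pth1r and Rgs2 were higher in it. Over the genes with counts, it differed from replicates 2 and 3 by a chi-square per degree of freedom of 63.8 and 58.0. That value was 6.45 between replicates 2 and 3, and 2.02 to 5.66 between libraries within the other groups. RNA of the targeted genes was reduced and not lost in the libraries labelled DKO. Hdac4 fell by 0.85 and Hdac5 by 0.65 on the log2 scale in static cells, and under FFSS Hdac4 fell by 1.48 while Hdac5 was 0.19 ± 0.08 (SE) above control, which missed the threshold (edgeR, adjusted p = 0.0512). Reads were counted over the whole gene, so this checks the genotype only in part. The 6 osteocyte markers summed to 96.6 ± 19.7 CPM (SD, n = 3) when control cells were static, against 3639 ± 45.3 CPM for DKO cells. Sost was at 5.35 CPM in control static cells and 2063 CPM in DKO static cells, and Mepe and Fgf23 were at or near the floor in control cells. Marker sums of osteoblasts, chondrocytes, blood cells and fat cells also moved with genotype in static cells, without overlap. The 5 osteoblast markers summed to between 17155 and 20738 CPM in control and between 50184 and 57869 CPM in DKO libraries, and the 6 chondrocyte markers to between 93.7 and 121 CPM and between 2389 and 2982 CPM. The 3 blood cell markers were the reverse, between 23.9 and 28.5 CPM in control and between 2.80 and 3.29 CPM in DKO libraries. So were the 3 fat cell markers, between 2.03 and 2.53 CPM and between 0.384 and 1.28 CPM. The muscle and endothelial marker sums overlapped between the genotypes. The part of these markers in the genotype differences of the members was not tested.

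Measured per kb of merged exon, the receptor was the most abundant member in all groups but control FFSS. There Pth1r was at 87.2 ± 63.1 CPM per kb (SD, n = 3) and Prkar1a at 123 ± 15.0, with Pth1r higher in replicate 1 and Prkar1a higher in the other 2. In control static cells Pth1r stood at 217 ± 14.2 CPM per kb (SD, n = 3), and Prkar1a followed at 112 ± 3.06, with no overlap between the libraries of the 2 genes. Gnas was at 11.96 ± 0.590 CPM per kb, Pde4a at 4.91 ± 0.164 and Rgs2 at 2.34 ± 0.229. Pde4b at 1.03 ± 0.0794, Pde4d at 1.00 ± 0.0167 and Crem at 0.834 ± 0.0778 CPM per kb ended the order of expressed members, and Pde4b and Pde4d did not differ beyond their spread. Per kb of the longest transcript Pde4d was at 2.86, Rgs2 at 2.81, Pde4b at 2.53 and Crem at 1.69 CPM in the same cells, so the order of these low members depends on the length used. In DKO static cells Pth1r (260 ± 4.09 CPM per kb) and Prkar1a (118 ± 1.88) were again the highest, while Rgs2, at 20.1 ± 2.14, stood above Gnas at 15.3 ± 0.28. Divided by the longest transcript instead of all merged exons, Gnas, with its many alternative first exons, was at 33.9 CPM per kb in control and 43.4 in DKO static cells, above Rgs2 at 24.2 in the latter.

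**Figure D1:**
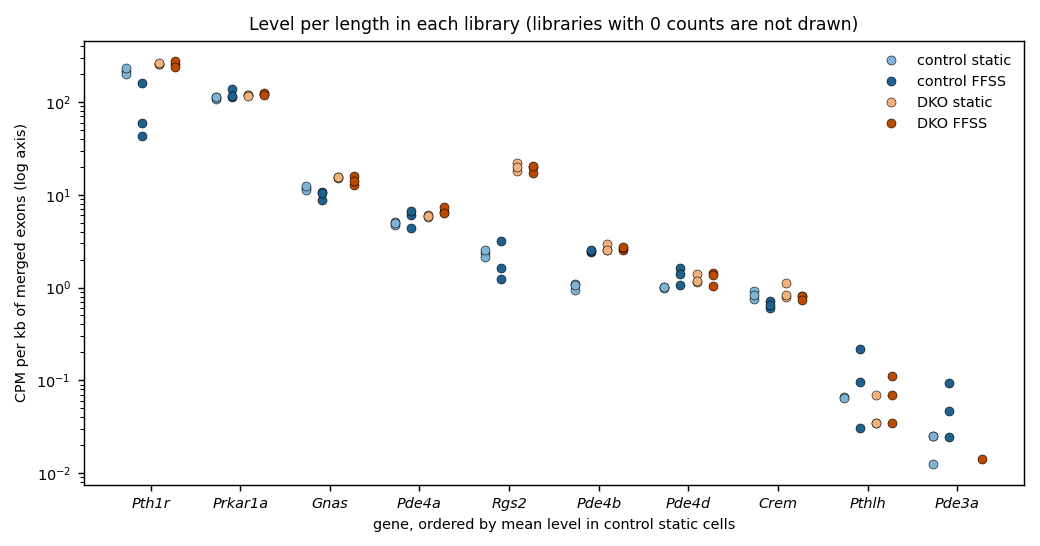
Level of each member in every library, in CPM per kb of merged exons on a log axis, with 1 point per library coloured by group; libraries with 0 counts are not drawn. Pth1r and Prkar1a are the highest members in control static cells (217 and 112 CPM per kb), Rgs2 stands near 20 in DKO cells, and Pthlh and Pde3a lie near the floor.

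Of the 9 members that passed the filter on low counts, 4 changed with FFSS in control cells at an adjusted p under 0.05: Pde4b and Pde4d (not its second identifier) rose, and Pth1r and Gnas fell (edgeR). Over all 14904 genes tested 35.8% passed in this comparison, and 5.93% passed with more than a 2-fold change, as did 2 members, Pth1r and Pde4b. In DKO cells no member changed with FFSS, where 0.872% of all genes passed. No member had an unadjusted p under 0.05 there either (the lowest was 0.114), and DESeq2 and limma-voom also called 0. Pde4a passed in 2 other fits, given with its values. DKO cells exceeded control cells in 3 members when static (Gnas, Rgs2 and Pde4b) and in 3 under FFSS (Pth1r, Gnas and Rgs2), where 54.2% and 56.6% of all genes passed. With more than a 2-fold change there were 2 members in each, Rgs2 and Pde4b when static and Rgs2 and Pth1r under FFSS, against 15.3% and 17.2% of all genes. The median log2 fold change of the members was 0.13 for FFSS in control cells and 0.28 for genotype in static cells, beside 0.01 for all genes in both.

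**Figure D2:**
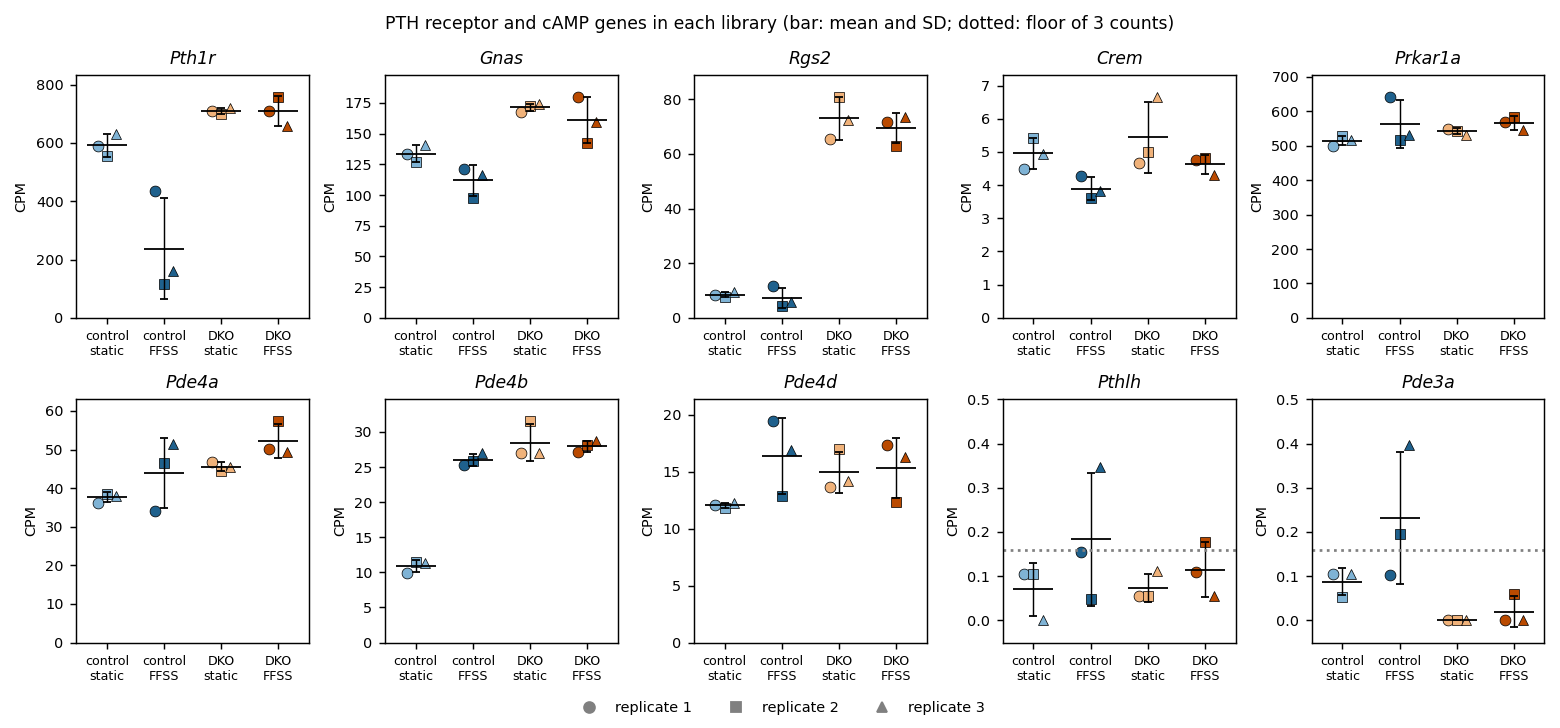
CPM of the 10 members in each of the 12 libraries, with a symbol for each replicate number, a bar at the group mean and an error bar of 1 SD (n = 3); the dotted line in the lowest members is the floor of 3 counts. Pde4b rises from 9.94 to 11.4 in control static libraries to over 25 in every other library, Rgs2 is at 63.1 CPM or more in every DKO library and at 11.6 or less in every control library, and Pth1r is split among the control FFSS libraries (117 to 435 CPM).

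Pth1r, the receptor (chr9:110624592-110649649 in mm9, minus strand), was at 590, 555 and 632 CPM in the control static libraries, and at 435, 117 and 162 CPM in the control FFSS libraries. The DKO libraries held 710, 699 and 721 CPM when static and 711, 759 and 657 CPM under FFSS. All 3 control FFSS libraries were below all control static libraries, and replicate 1 was far above the other 2. The DKO groups overlapped each other.

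In control cells FFSS lowered Pth1r 2.49-fold, or -1.32 ± 0.41 (SE) on the log2 scale (edgeR, adjusted p = 0.0343). Against the static mean the 3 libraries stood at 0.734, 0.197 and 0.273. In DKO cells the log2 fold change was -0.0026 (95% interval -0.91 to 0.91). This interval reflects the spread of all 4 groups: the SE was 0.40 in the common fit and 0.044 when only the 6 DKO libraries were fitted. The difference between the FFSS responses of the genotypes was 1.31 ± 0.57 on the log2 scale and missed the threshold (edgeR, adjusted p = 0.204), and it was 2.09 (adjusted p = 1.54e-06) without control FFSS replicate 1. It was 0.66 (adjusted p = 0.262) with the share of reads outside genes in the model and 0.99 without control FFSS replicate 2. Between genotypes Pth1r was 2.98-fold higher in DKO cells under FFSS (log2 1.58 ± 0.41; edgeR, adjusted p = 0.00944), and the log2 difference was 2.35 without control FFSS replicate 1 and 1.25 without replicate 2, with the call kept. In static cells all 3 DKO libraries were above the control libraries by a log2 difference of 0.26 ± 0.40 that missed the threshold (adjusted p = 0.619) and passed at the same size when only those 6 libraries were fitted (adjusted p = 8.74e-06) and without control FFSS replicate 1 (adjusted p = 0.0387). With the share of reads outside genes in the model it was 1.04 (adjusted p = 0.00369).

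The fall of Pth1r in control cells moved with other measures of the same libraries. The 5 osteoblast markers summed to 17155 to 20738 CPM in control static and to 5998 to 16919 CPM in control FFSS libraries. The 3 blood cell markers summed to 23.9 to 28.5 CPM and to 15.5 to 23.5 CPM, in the same order. The chondrocyte, osteocyte, endothelial, fat and muscle cell sums overlapped between these groups. The share of reads outside genes rose from 5.14% ± 0.06 to 8.37% ± 2.20 (SD, n = 3). With that share in the model the log2 fold change of Pth1r with FFSS in control cells was -0.24 (edgeR, adjusted p = 0.650), and it was -2.09 (adjusted p = 7.58e-08) without replicate 1. The call was lost without replicate 2 (-0.99, adjusted p = 0.0614) or replicate 3 (-1.10, adjusted p = 0.106), without any 1 of the control static libraries (-1.36 to -1.27, adjusted p = 0.0636 to 0.0798), with no filter (adjusted p = 0.0629) and with only those 6 libraries in the fit (adjusted p = 0.106). The part of the marker genes in the result was not tested. In bulk RNA, fewer cells of a type and less RNA per cell cannot be told apart.

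Over the 12 libraries, the genes whose centred log2 CPM lay nearest to that of Pth1r were Creb3l1 (root mean square difference 0.142), Slc13a4 (0.149) and Odf3l1 (0.153), among 11274 genes compared. Creb3l1, a transcription factor of the endoplasmic reticulum membrane, was at 905, 245 and 286 CPM in the control FFSS libraries and at 864 to 974 CPM in the control static libraries. Its control FFSS replicate 1 lay among the static libraries, where that of Pth1r lay below them.

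The ligand gene Pthlh (chr6:147200623-147212689, minus strand) was at or under the floor in all but 1 library. Control libraries held 2, 2 and 0 counts when static and 3, 1 and 7 under FFSS. DKO libraries held 1, 1 and 2 counts when static and 2, 3 and 1 under FFSS. No difference was detectable at this depth. Pth itself, the gene of the hormone, had 0 CPM in all libraries.

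Gnas, the gene of the stimulatory G protein alpha subunit (chr2:174109821-174172245, plus strand), was at 134, 127 and 140 CPM in control static and 121, 97.8 and 116 CPM in control FFSS libraries. In DKO cells it was at 168, 172 and 174 CPM when static and at 180, 143 and 160 CPM under FFSS. The control groups did not overlap, and every DKO library was above every control library. Among static cells Gnas was 1.28-fold higher in the DKO line (log2 0.36 ± 0.09, SE; edgeR, adjusted p = 0.00312) and 1.44-fold higher under FFSS (0.52 ± 0.09, adjusted p = 0.000158).

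With FFSS Gnas fell 1.20-fold in control cells (log2 -0.26 ± 0.09; edgeR, adjusted p = 0.0352), and this call was lost in 10 of 21 alternatives. It was -0.14 (adjusted p = 0.196) with libraries scaled by their totals alone, -0.13 (adjusted p = 0.552) with the share of reads outside genes in the model, -0.25 (adjusted p = 0.0911) in the 6 libraries alone and -0.17 (adjusted p = 0.144) without control FFSS replicate 2. It was also lost, at -0.29 to -0.22 (adjusted p = 0.05003 to 0.125), without control FFSS replicate 3, any 1 control static library, DKO static replicate 3 or DKO FFSS replicate 3. In DKO cells the change was -0.09 (95% interval -0.28 to 0.10), and the responses of the genotypes differed by 0.17 ± 0.12, which missed the threshold (adjusted p = 0.432). Of the merged exon bases of Gnas, 21.97% overlap the antisense genes Nespas and AF085738. The deposited counts are named as not stranded, so reads of these genes and Gnas could not be told apart there.

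Rgs2 (chr1:145846468-145851291, minus strand), which speeds the shut-off of G protein alpha subunits, showed the largest genotype difference of the members. It was at 8.46, 7.66 and 9.32 CPM in control static and 11.6, 4.49 and 5.89 CPM in control FFSS libraries. The DKO values were 65.4, 80.9 and 72.5 CPM when static and 71.8, 63.1 and 73.3 CPM under FFSS. Every DKO library was thus far above every control library, and neither genotype's static and FFSS libraries were apart. Rgs2 was 8.60-fold higher in DKO static cells (log2 3.10 ± 0.25, SE; edgeR, adjusted p = 2.26e-06) and 9.52-fold higher under FFSS (3.25 ± 0.26, adjusted p = 1.77e-06).

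FFSS gave no call for Rgs2 in either genotype. In control cells the log2 fold change was -0.22 (95% interval -0.84 to 0.41), with replicate 1 above and the other 2 below the static libraries, and in DKO cells it was -0.07 (-0.56 to 0.41). Without control FFSS replicate 1 the control response was -0.71 (edgeR, adjusted p = 0.00038) and differed from that of DKO cells by 0.64 (adjusted p = 0.0048). The chondrocyte marker sum (107 CPM in control static, 2658 CPM in DKO static cells) and the osteocyte marker sum moved with genotype as Rgs2 did, and their part in its difference was not tested.

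Pde4b, a cAMP-specific phosphodiesterase (chr4:101760148-102279864, plus strand), was the member whose response to FFSS differed between the genotypes. It was at 9.94, 11.4 and 11.4 CPM in control static and 25.3, 25.9 and 26.9 CPM in control FFSS libraries. DKO libraries were at 26.9, 31.5 and 26.997 CPM when static and 27.1, 28.1 and 28.6 CPM under FFSS. The control static libraries thus stood alone at the low level, and the 3 control FFSS libraries lay close together, replicate 1 included.

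With FFSS Pde4b rose 2.39-fold in control cells (log2 1.25 ± 0.09, SE; edgeR, adjusted p = 9.01e-07), to 2.32, 2.37 and 2.47 times the static mean in the 3 libraries. In DKO cells the change was -0.03 (95% interval -0.20 to 0.15). The difference between these responses was -1.28 ± 0.12 on the log2 scale (edgeR, adjusted p = 0.000204), in a comparison where 3.97% of all genes passed, 0.651% with more than a 2-fold difference. It was the 1 member of 9 that passed there. In static cells Pde4b was 2.61-fold higher in DKO than in control cells (1.38 ± 0.09, adjusted p = 1.27e-08), and under FFSS the genotypes differed by 0.10 (95% interval -0.07 to 0.28). The osteoblast, chondrocyte and osteocyte marker sums were also higher, and the blood cell sum lower, in DKO static cells, and their part in the Pde4b difference was not tested. The comparisons of FFSS in control cells and of genotype in static cells share the control static libraries.

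**Figure D3:**
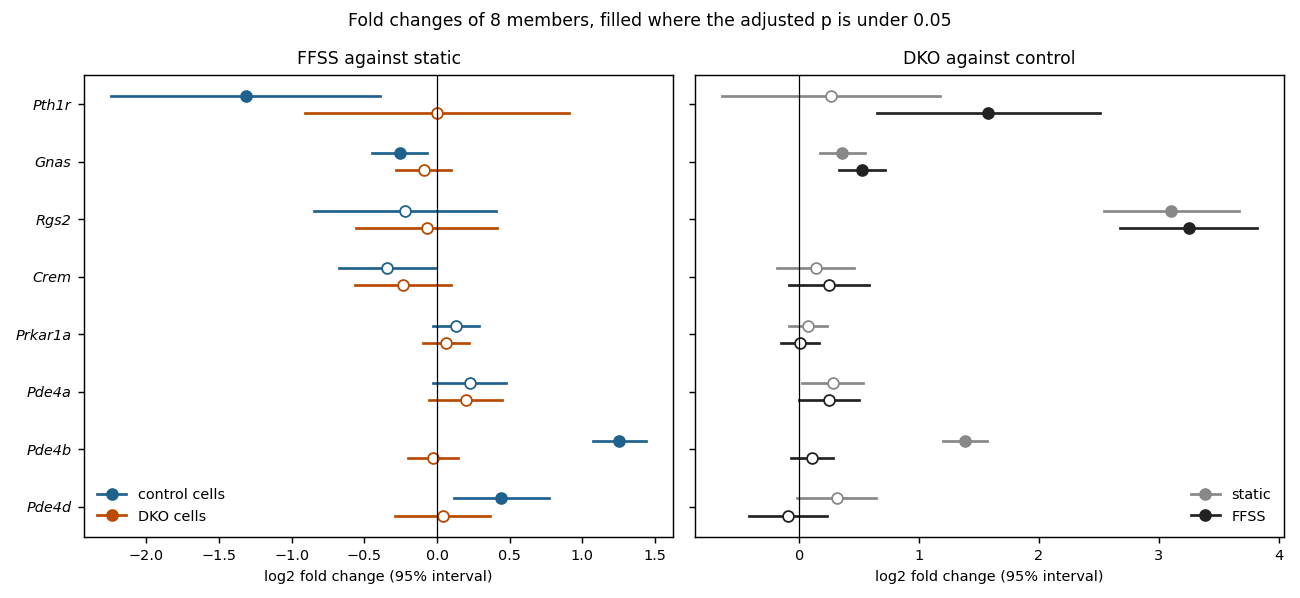
Log2 fold change of 8 members with its 95% interval, for FFSS against static in control and DKO cells (left) and for DKO against control in static cells and under FFSS (right); filled points have an adjusted p under 0.05 (edgeR). Pde4b (1.25) and Pth1r (-1.32) move apart with FFSS in control cells and lie at 0 in DKO cells, and Rgs2 exceeds 3 for genotype in both conditions.

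Pde4a (chr9:20970158-21017692, plus strand), the most abundant PDE4 gene in CPM, was at 36.2, 38.6 and 38.1 CPM in control static and 34.0, 46.4 and 51.4 CPM in control FFSS libraries. In DKO cells it was at 46.7, 44.6 and 45.5 CPM when static and 50.2, 57.3 and 49.3 CPM under FFSS. The static libraries of the genotypes did not overlap, nor did the DKO groups, yet no comparison passed the threshold in the common fit of all 12 libraries. With FFSS in DKO cells it passed when only those 6 libraries were fitted (log2 0.21; edgeR, adjusted p = 0.0267) and without control FFSS replicate 1 (0.20, adjusted p = 0.0434), fits in which 11.9% and 10.5% of all genes passed. With FFSS in control cells it passed without control FFSS replicate 1 (0.38, adjusted p = 4.45e-05), the lowest library of that group, and was -0.24 with the share of reads outside genes in the model. Under FFSS the genotype difference passed without control FFSS replicate 3 (0.38, adjusted p = 0.0115) and with that share in the model (0.30, adjusted p = 0.000324). The genotype difference in static cells was 0.28 ± 0.12 on the log2 scale (SE; edgeR, adjusted p = 0.0614). It passed at the same size when only those 6 libraries were fitted (adjusted p = 0.000116) and without control FFSS replicate 1 (adjusted p = 0.000455) or replicate 3 (adjusted p = 0.0297). With the share of reads outside genes in the model it was 0.0088 (adjusted p = 0.938). The common fit pools the spread of all 4 groups.

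Pde4d (chr13:109240142-110743669, plus strand) was at 12.1, 11.8 and 12.2 CPM in control static and 19.4, 12.8 and 16.9 CPM in control FFSS libraries. In DKO cells it ranged from 13.6 to 17.01 CPM when static and from 12.4 to 17.3 CPM under FFSS. FFSS raised it 1.36-fold in control cells (log2 0.44 ± 0.15, SE; edgeR, adjusted p = 0.0369), with replicate 2 close to the static libraries. The call was lost in 7 of 21 alternatives: without replicate 1 (0.30, adjusted p = 0.0517) or replicate 3 (0.42, adjusted p = 0.0988), without any 1 control static library (adjusted p = 0.0842 to 0.0970), in the 6 libraries alone (adjusted p = 0.0760) and with limma-voom (adjusted p = 0.0529). The difference in response between genotypes, -0.40 ± 0.22, missed the threshold (adjusted p = 0.27). The second identifier, 1 transcript of 1855 bases just downstream (chr13:110744317-110746171), was at 3.38 to 4.001 CPM in control static and 5.38 to 6.32 CPM in DKO static libraries. It was 1.65-fold higher in DKO static cells (0.73 ± 0.19, adjusted p = 0.00573) and 1.74-fold higher under FFSS (0.80 ± 0.20, adjusted p = 0.00289), while the long identifier differed by 0.31 ± 0.15 (adjusted p = 0.106) and -0.09 ± 0.15 (adjusted p = 0.623). The former passed in the 6 libraries alone (adjusted p = 0.00486), without control FFSS replicate 1 (adjusted p = 0.0251) and, at 0.47, with the share of reads outside genes in the model (adjusted p = 0.0183).

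Within the PDE4 family, in CPM per kb of merged exon, Pde4b made up 14.8% ± 0.6 (SD, n = 3) in control static and 25.9% ± 2.3 in control FFSS libraries. The share was 27.2% ± 1.7 and 24.6% ± 1.0 in DKO static and FFSS libraries. Pde4a held 70.7% ± 0.4 in control static cells and 59.5% to 63.4% on average in the other groups. Pde4c was near 0 in all 4 groups. These shares depend on the length used. Per kb of the longest transcript Pde4a was at 9.44, Pde4b at 6.05 and Pde4d at 3.89 CPM in control FFSS cells. The second Pde4d identifier, at 3.22 CPM per kb in DKO static cells, was left out of the shares and of the sum. The summed PDE4 level was 6.95 ± 0.24 CPM per kb in control static libraries and 9.58 ± 1.115 with FFSS, and in DKO libraries 9.90 ± 0.29 without and 10.8 ± 0.4 with FFSS, so that control static cells were the lowest without overlap. Pde3a (chr6:141197790-141447872, plus strand), the phosphodiesterase inhibited by cGMP, had 1 to 8 counts per library in control cells and at most 1 in DKO cells, and the filter removed it.

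Prkar1a, the type I alpha regulatory subunit of PKA (chr11:109510719-109530970, plus strand), passed the threshold in no comparison of the common fit. It was at 500, 528 and 517 CPM in control static and 643, 517 and 531 CPM in control FFSS libraries. The DKO libraries held 549, 544 and 532 CPM when static and 569, 583.7 and 546 CPM under FFSS. Replicate 1 of control FFSS was the highest library of all. The log2 fold change with FFSS was 0.13 (95% interval -0.03 to 0.29) in control and 0.06 (-0.09 to 0.22) in DKO cells, and the genotypes differed by 0.07 (-0.08 to 0.23) when static and 0.01 (-0.15 to 0.16) under FFSS. In other fits it passed with FFSS in control cells (0.25 by library totals and 0.36 with the share of reads outside genes; edgeR, adjusted p = 0.0047 and 0.000683), and for genotype in static cells with that share (0.22, adjusted p = 0.00116). For genotype under FFSS it passed at 0.11 without control FFSS replicate 1 (adjusted p = 0.0349) and at -0.18 by library totals. It made up 65.8% to 70.0% of the regulatory subunit RNA per kb in the 4 groups, on average.

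Among the other regulatory subunits, which were not among the 10 genes, Prkar1b rose from 7.54% ± 0.17 of that RNA in control static to 17.5% ± 0.6 in DKO static cells, and Prkar2a fell from 18.6% ± 0.8 to 11.7% ± 0.1. By gene, Prkar1b was higher by 1.33 and Prkar2a fell by 0.56 on the log2 scale in DKO static cells, and both passed the threshold (edgeR).

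Crem was low, at 4.49, 5.42 and 4.95 CPM in control static and 4.26, 3.61 and 3.81 CPM in control FFSS libraries. In DKO cells it was at 4.67, 4.99 and 6.67 CPM when static and 4.76, 4.82 and 4.31 CPM under FFSS. All control FFSS libraries lay below all control static ones, by -0.35 ± 0.15 (SE) on the log2 scale, which missed the threshold (edgeR, adjusted p = 0.0931). It passed without control FFSS replicate 1 (-0.42, adjusted p = 0.0346). The change in DKO cells was -0.23 (95% interval -0.56 to 0.09). Counts were made per gene, so the ICER transcripts, which start inside Crem, were not told apart from the rest.

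**Figure D4:**
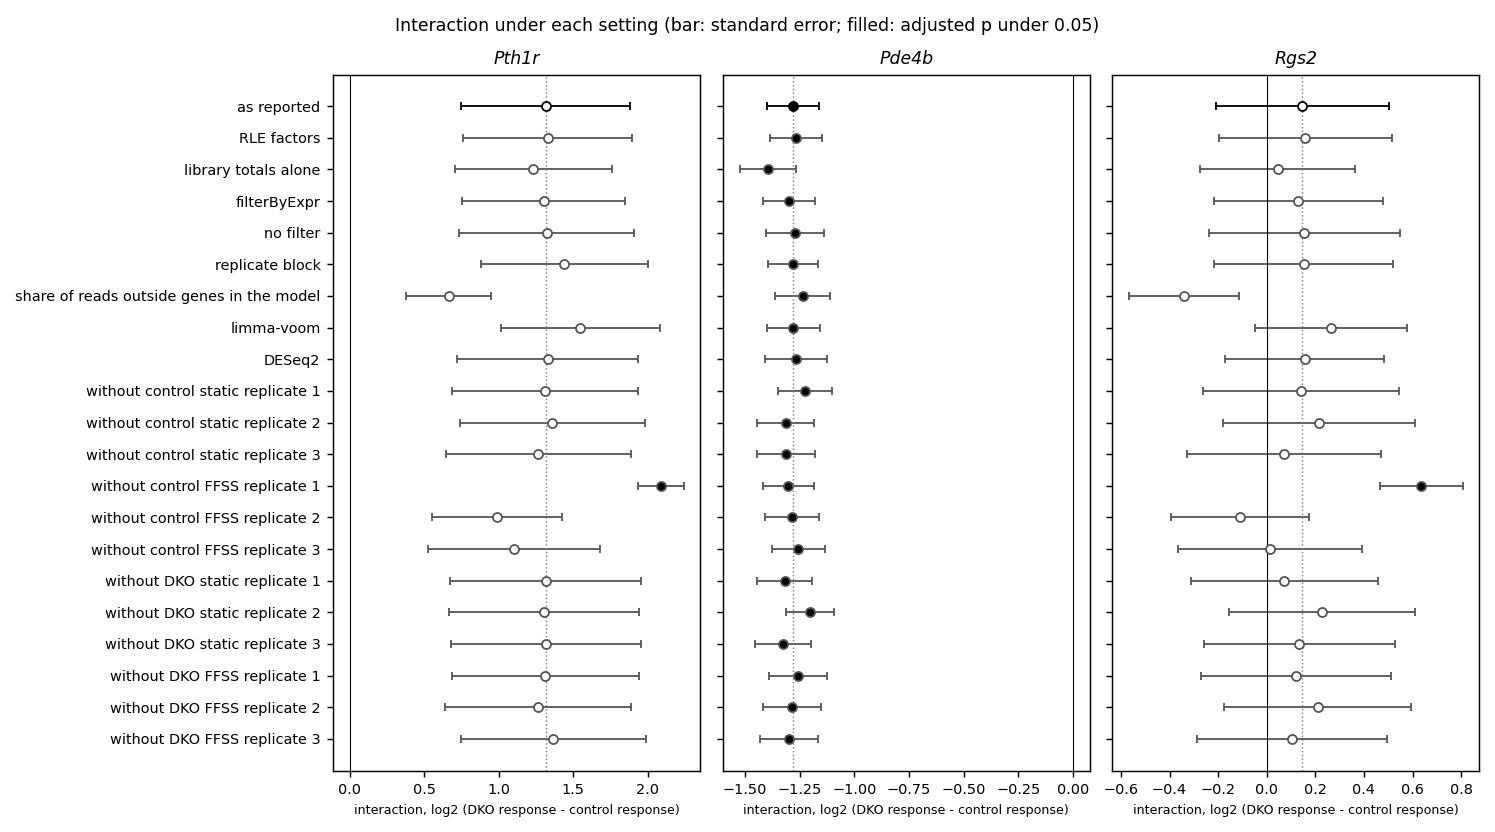
Difference between the FFSS responses of DKO and control cells on the log2 scale, with its standard error, for Pth1r, Pde4b and Rgs2 under each setting tried; filled points have an adjusted p under 0.05. Pde4b stays between -1.40 and -1.20 and filled in every setting drawn, whereas Pth1r and Rgs2 are filled only without control FFSS replicate 1.

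The members were set beside 98 other genes of the pathway in 10 lists by role, of which 76 passed the filter. With FFSS in control cells 12 rose and 18 fell (edgeR, adjusted p under 0.05), 39.5% of those tested, near the 35.8% of all genes. These counts rest on single libraries: 21 rose and 27 fell without control FFSS replicate 1, where 55.2% of all genes passed. Without control FFSS replicate 3 or control static replicate 3, 4 rose and 14 fell, where 25.4% and 24.4% of all genes passed. Without control static replicate 2, 4 rose and 15 fell, where 25.8% of all genes passed. With the share of reads outside genes in the model 2 rose and 13 fell, and in the 6 libraries alone 4 rose and 12 fell, where 15.4% and 16.5% of all genes passed. In DKO cells 0 passed. That count was 8 without control FFSS replicate 1, 10 in the 6 libraries alone and 11 with the share in the model, where 10.5%, 11.9% and 9.95% of all genes passed. Of the 9 receptor and ligand genes tested 1 rose and 3 fell in control cells (44.4%, beside 35.8% of all genes), among them Ramp1, an accessory protein of calcitonin family receptors, from 107 ± 15.3 to 34.5 ± 32.2 CPM (SD, n = 3; log2 -1.63 ± 0.51, SE, adjusted p = 0.0363). Of the 12 A-kinase anchoring proteins, which tether PKA, 4 rose and 3 fell (58.3%, beside the same 35.8%), and Akap12 rose from 34.5 ± 1.11 to 73.5 ± 35.7 CPM (1.09 ± 0.33, adjusted p = 0.0316), although 1 of its control FFSS libraries, at 32.4 CPM, lay below the static ones. Of the 7 phosphodiesterases outside the members 2 rose and 1 fell (42.9%, beside the same 35.8%).

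Between genotypes in static cells DKO cells had 22 pathway genes above and 22 below control cells, and with FFSS these were 24 and 24. These are 57.9% and 63.2% of those tested, near the 54.2% and 56.6% of all genes. The CREB-induced early genes had 4 of 7 higher and 1 lower when static, with a median log2 fold change of 0.85 beside 0.01 for all genes, where 54.2% of all genes passed. Under FFSS 4 were higher and 2 lower, with a median of 0.41 beside -0.05, where 56.6% of all genes passed. All 3 Nr4a nuclear receptor genes were among them, led by Nr4a3 (3.27 ± 0.05 to 36.5 ± 5.76 CPM, SD, n = 3; log2 3.48 ± 0.15, SE; edgeR, adjusted p = 4.1e-10). Fos, of the same list, was at 13.8 CPM in both. Of the phosphodiesterases, Pde1a, which calcium and calmodulin activate, was higher in DKO static cells (0.245 ± 0.081 to 4.28 ± 0.90 CPM; 4.09 ± 0.28, adjusted p = 3.61e-08), and Pde3b was lower (28.5 ± 1.95 to 8.58 ± 0.15 CPM; -1.73 ± 0.10, adjusted p = 4.32e-09).

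Of the 13 genes of receptor desensitisation 4 were higher and 5 lower in DKO static cells (69.2%, beside 54.2% of all genes). Rgs3, like Rgs2 a regulator of G protein signalling, rose from 16.3 ± 1.75 to 115 ± 2.61 CPM between control and DKO cells kept static (SD, n = 3; log2 2.82 ± 0.13, SE; edgeR, adjusted p = 1.16e-09), and Rgs14 fell from 4.17 ± 0.38 to 0.809 ± 0.143 CPM (-2.36 ± 0.28, adjusted p = 6.4e-06). The exchange factors activated by cAMP moved apart: Rapgef3 was lower in DKO static cells (22.03 ± 0.54 to 7.59 ± 0.54 CPM; -1.54 ± 0.15, adjusted p = 1.14e-06) and Rapgef4 was higher by 1.40 on the log2 scale. The same direction and the threshold held under FFSS for Pde1a (4.06), Rgs3 (3.75), Pde3b (-2.25), Rgs14 (-2.52) and Rapgef3 (-2.10), and Ramp1 was higher by 3.11 on the log2 scale there.

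**Figure D5:**
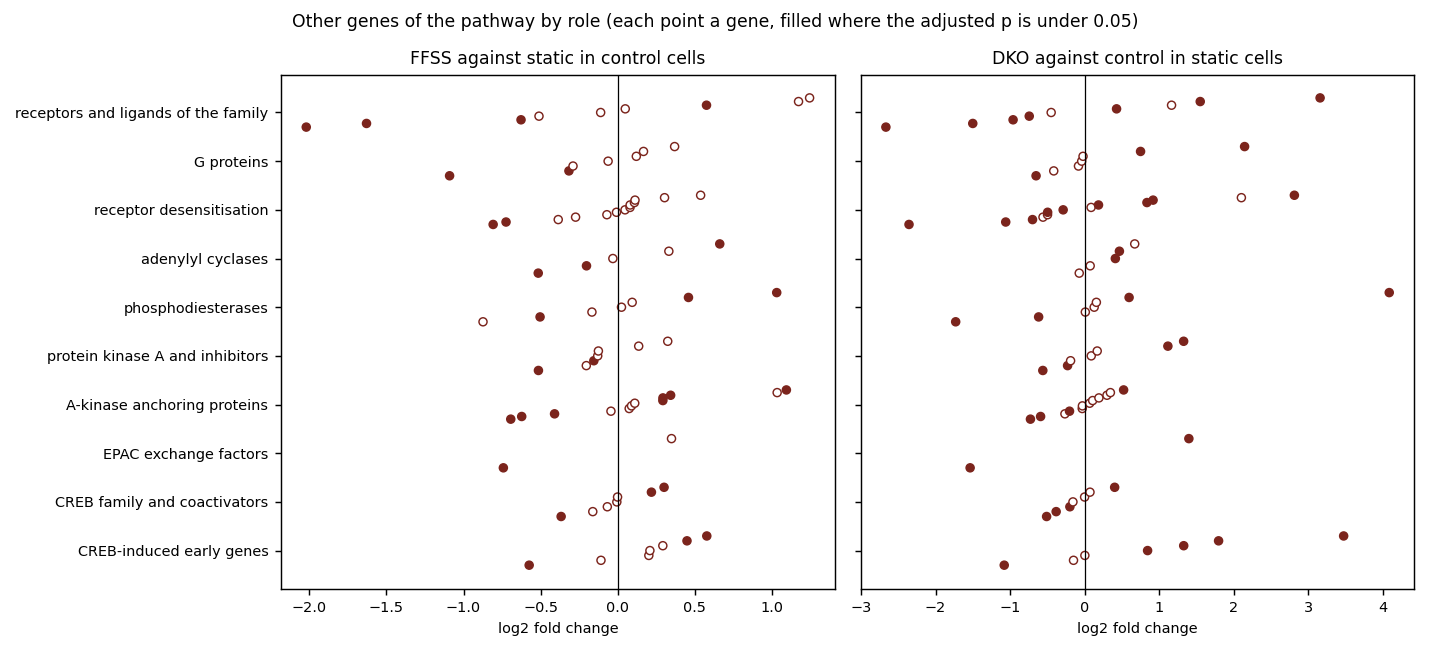
Log2 fold change of the 76 other pathway genes tested, in rows by role with 1 point per gene, for FFSS against static in control cells (left) and DKO against control in static cells (right), each on its own linear axis; filled points have an adjusted p under 0.05 (edgeR). Filled points lie on both sides of 0 in most roles, and Pde1a (4.09) and Nr4a3 (3.48) lie farthest to the right for genotype.

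The FFSS responses of the genotypes differed in 6 of the 76 pathway genes (7.89%, beside 3.97% of all genes), 4 of them with a higher and 2 with a lower response in DKO cells (edgeR, adjusted p under 0.05). Pde3b was among them, with a rise of 0.46 in control and a log2 fold change of -0.06 in DKO cells, as were Pde2a, Prkar1b, Rgs3, Akap8l and Calcrl, named after their values were seen. The count was 34 without control FFSS replicate 1, where 37.8% of all genes passed, and 0 to 2 when any other single library was left out, where 1.21% to 2.54% of all genes passed.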

How the data were processed

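Ocy454 RNA-seq counts were deposited per gene for 12 libraries. The authors aligned reads with STAR to mm9 and counted them per gene with HTSeq. The deposited files are named as not stranded; 5 summary lines per file (reads outside genes, 5.10% to 10.0%, and ambiguous reads, 2.70% to 2.95% of reads) were left out of library sizes. Symbols came from an mm9 annotation (37168 of 37583 identifiers). Genes with 0 counts in 2 or more libraries were removed, and the rest were fitted with edgeR's robust quasi-likelihood test (version 4.0.16, R 4.3.3, TMM factors) over all 4 groups, with Benjamini-Hochberg adjustment over 14904 genes and a threshold of 0.05. The script was tested on simulated data with the same small spread in every group and no outlying library. That test does not cover the split among the control FFSS libraries. Intervals are 95%. CPM values printed are scaled with the TMM factors, and the floor by library totals. All members are named; of the other pathway genes, up to 3 highest and 3 lowest past 2-fold with average log2 CPM above 1, and for Pth1r its 3 nearest genes. Prkar1b, Prkar2a, Fos, Rapgef4 and the interaction genes were named outside this rule, after their values were seen. Members and lists were chosen with earlier results of these data known. Replicate numbers gave no sign of pairing the libraries (same-number correlations -0.06 to 0.06, different-number ones -0.09 to 0.09), and the labels do not say whether they do. Alternatives were RLE factors, library totals, other filters, a replicate block, the share of reads outside genes, 6-library fits, limma-voom (limma 3.58.1), DESeq2 (1.42.0) and leaving out each library. RefSeq promoter windows are from GRCm38.p6, and no coordinates were converted.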

Additional observations from a re-analysis of the deposited data

Results flagged for a closer look

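The response of Pde4b to FFSS differed between the genotypes: the interaction was -1.28 on the log2 scale (edgeR, adjusted p = 0.000204), with the control FFSS libraries at 2.32, 2.37 and 2.47 times their static mean and the DKO FFSS libraries at 0.951, 0.988 and 1.01 times theirs. Libraries within a group were compared pair by pair over genes, and no formal test for a single outlying library was run on groups of 3.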

How the results depend on the processing

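Of 39 log2 fold changes of the members, the second Pde4d identifier included for genotype, 13 passed the threshold, and 10 of them kept direction and call under every alternative run. The 3 that lost the call somewhere were the changes of Pth1r, Gnas and Pde4d with FFSS in control cells, which kept their direction. With only the 6 libraries of the comparison in the fit, the members called with FFSS in control cells numbered 1 in place of 4, those with FFSS in DKO cells 1 in place of 0 (Pde4a), and those for genotype in static cells 6 in place of 3, with Pth1r, Pde4a and Pde4d added. Of all 14904 genes, 16.5%, 11.9% and 65.3% passed in these fits, in place of 35.8%, 0.872% and 54.2%. With the share of reads outside genes in the model the last count was also 6, with Pth1r (1.04), Pde4d (0.47) and Prkar1a (0.22) added, and for FFSS in control cells 3 members rose (Pde4b, Pde4d and Prkar1a at 0.36) and 0 fell, in place of 2 and 2. Of all genes 58.1% and 15.4% passed there. In control cells 2 members passed with more than 2-fold, beside 5.93% of all genes. At an adjusted p under 0.01 Pde4b passed (edgeR, adjusted p = 9.01e-07), and Pth1r, Gnas and Pde4d did not. Leaving out one library at a time, the counts ranged from 1 to 6 for FFSS in control cells, 0 to 1 for FFSS in DKO cells, 1 to 3 for the interaction, 3 to 6 for genotype in static cells and 3 to 4 for genotype under FFSS. Without control FFSS replicate 1 they were 6, 1, 3, 6 and 4, where 55.2%, 10.5%, 37.8%, 64.0% and 65.2% of all genes passed, in place of 35.8%, 0.872%, 3.97%, 54.2% and 56.6%. Without any 1 of the control static libraries, or control FFSS replicate 3, the count for FFSS in control cells was 1, and without replicate 2 it was 2. In these fits 24.4% to 25.9% of all genes passed, in place of 35.8%. The cause of these changes was not tested.

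Scaling by library totals moved the median log2 fold change of all genes from 0.01 to 0.13 for FFSS in control cells and from -0.05 to -0.25 for genotype under FFSS. It gave 3 members higher and 1 lower with FFSS in control cells, in place of 2 and 2. Of all genes 38.7% passed there, 4096 higher and 1675 lower, in place of 2633 and 2705. This scaling turned Pde4b for genotype under FFSS to -0.094. It turned Prkar1a to -0.0099 for genotype in static cells and to -0.18 (edgeR, adjusted p = 0.0122) under FFSS. The last was -0.0054 with filterByExpr and -0.00087 with the share of reads outside genes. With that share, Rgs2 was at 0.56 for FFSS in control cells, 0.22 in DKO cells and -0.34 for the interaction, and Pde4a was at -0.24 for FFSS in control cells. The change of Pth1r with FFSS in DKO cells, at 0, turned to 3.4e-05 with RLE factors, 5.1e-05 with DESeq2, 0.0083 with library totals, 0.0070 in the 6 libraries and 0.42 with the share.

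Leaving out one library turned the sign of values near 0, none of which had passed. For FFSS in DKO cells the ranges were -0.054 to 0.049 for Pth1r, -0.15 to 0.0085 for Rgs2, -0.066 to 0.052 for Pde4b and -0.059 to 0.17 for Pde4d. For Rgs2 they were -0.71 to 0.038 for FFSS in control cells and -0.11 to 0.64 for the interaction. For genotype they were -0.032 to 0.23 for Crem in static cells, and -0.24 to 0.048 for Pde4d and -0.052 to 0.11 for Prkar1a under FFSS. The replicate numbers gave no sign of pairing the libraries. With them as a replicate block the counts of members called were 4, 0, 1, 3 and 3, as without. Of all genes 34.5%, 0.47%, 2.8%, 53.6% and 55.7% passed there. The Pde4b interaction was -1.28 with the block (edgeR, adjusted p = 0.00095). The pathway genes with an interaction numbered 2 in place of 6, where 2.8% of all genes passed in place of 3.97%. Depth limits Pthlh and Pde3a, with 0 to 8 counts per library.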
